A study of Populus ussuriensis with 12 samples.

Results

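The comparison set root tips of Populus ussuriensis plants overexpressing PuC3H35 (OE) against those of wild-type plants (WT), both kept for 7 days on agar medium without PEG. Each group had 3 libraries of total RNA from the last 0.5 cm of the root, taken from plants propagated in vitro that were 1 week old at transfer. These are 6 of the 12 libraries of the study; the other 6 came from OE and WT plants on medium with 6% PEG6000, an osmotic agent that withholds water from the root. The genotype labels of the OE libraries without PEG carry 3 different gene numbers, PuC3H35, PuC3H36 and PuC3H37, one per library. The title of the series speaks of 1 line and spells it PuCH35, so the libraries were taken as 1 genotype. Neither the number of independent transformants nor the promoter of the transgene is stated in the labels. No label says that the replicates came from separate plants, and p-values therefore refer to the variation among these libraries alone, which may be technical.

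PuC3H35 is named as a protein with a CCCH zinc finger, a motif in which cysteines and a histidine hold a zinc ion. Proteins of this family bind RNA or act in transcription, and several of them in plants take part in responses to drought, salt and abscisic acid. The root tip holds the root cap, the meristem that renews the root and the zone where new cells elongate, and it is where a root first meets a dry medium. Because whole tips were sequenced, a lower share of a cell type and less RNA per cell cannot be told apart.

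The genes described averaged FPKM 1 or more across the 6 libraries without PEG. FPKM is a read number scaled to gene length and library depth. This rule kept 22018 of 34699 genes. At its edge stood a gene with a mean of 1.00022 FPKM just inside and one with 0.99985 just outside. The 12681 genes left out held 0.303% to 0.409% of a library's FPKM sum, and 4072 of them were listed at 0 in all 6 libraries. Among those left out, 146 reached FPKM 1 in all 3 OE libraries and 38 did so in all 3 WT libraries. The deposited table pairs no identifier with a gene name or a product. The genes are therefore described by level, size of change, length and identifier number, the level of PuC3H35 itself was not analysed here, and the tissue was not checked against marker genes.

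The 6 libraries fell into their 2 groups. On the first principal component of log2(FPKM + 1), which held 84.6% of the variance, OE lay at -35.3 to -32.8 and WT at 34.0 to 34.7. Pearson's r across the tested genes was 0.9943 to 0.9953 between libraries of a group and 0.9584 to 0.9623 between an OE and a WT library. Depth, recovered from the steps between FPKM values, was 28027002 to 36482069 reads in OE and 27122677 to 33170597 reads in WT. An FPKM of 1 in a gene of the median length of 1844 bp then stands for 50.0 to 67.3 reads per library.

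Many of the tested genes were called different between OE and WT, mostly by little. On log2(FPKM + 1), limma called 6468 genes higher in OE, 29.4% of those tested, and 5203 lower, 23.6%, at a Benjamini-Hochberg adjusted p under 0.05, or 53.0% in either direction. Among the higher genes, 1604 differed by less than 1.2-fold and 2810 by 1.2-fold to 1.5-fold. The lower genes were small in the same way, with 1521 under 1.2-fold and 2725 between 1.2-fold and 1.5-fold. The median log2 fold change was 0.40 among genes called higher and -0.35 among genes called lower. The median SD between replicates was 0.0751 in OE and 0.0751 in WT on that scale. A limma adjusted p under 0.01 left 4880 genes higher and 3803 lower. With any 1 library left out, 5663 to 6002 were called higher and 4584 to 4839 lower, of 21961 to 22058 tested. With no filter on low values, 7226 were called higher and 5146 lower, of 30627 tested. The majority of 53.0% was thus not kept under any of these settings.

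Large differences were mostly increases in OE. At 2-fold or more, 843 genes were higher in OE, 3.83% of those tested, and 176 were lower, 0.799%. Beyond 4-fold the surplus was wider, with 90 genes at 4-fold to 8-fold and 13 at 8-fold or more above WT, against 8 genes at 4-fold to 8-fold and 0 at 8-fold or more below WT. A pseudocount of 0.1 gave 1203 higher and 319 lower at 2-fold, limma voom on recovered reads gave 1252 and 345, and a minimum mean of 5 FPKM left 486 higher. Genes whose 3 OE libraries lay wholly above the 3 WT libraries numbered 7340 (33.3%), and those wholly below numbered 5951 (27.0%). Of the called genes, 6313 of the higher and 5067 of the lower ones had groups that did not overlap in this way. The balance between directions varied with the scaling: of all called genes 55.4% were higher in OE in FPKM as deposited, but 45.0% after quantile normalization and 47.8% after median-of-ratios scaling. The surplus of increases at 2-fold held with both, at 720 higher and 237 lower with quantile normalization and 783 higher and 204 lower with median-of-ratios scaling.

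**Figure D1:**
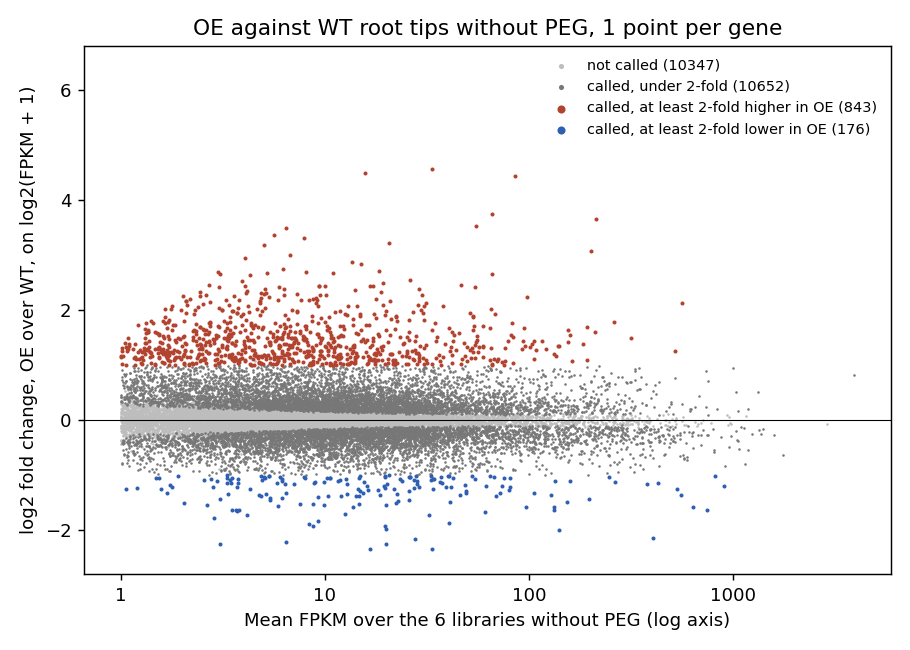
Each point is a gene, placed by its mean FPKM over the 6 libraries (log axis) and its log2 fold change of OE over WT on log2(FPKM + 1). The 843 genes at least 2-fold higher in OE thin out towards the most abundant genes and reach a log2 fold change of 4.55, while the 176 lower ones reach -2.34.

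The 2-fold higher genes had a low median level in WT roots, though 176 of the 843 averaged 10 FPKM or more there and 8 averaged 100 FPKM or more. Their median level was 9.83 FPKM in OE and 2.82 FPKM in WT, while the median over all tested genes was 9.42 FPKM in OE and 9.01 FPKM in WT. In OE none of the 843 had a group mean under 1 FPKM, whereas in WT 221 of them did (26.2%). These 221 compare with 553 of all 22018 tested genes under 1 FPKM in WT. The 2-fold lower genes were instead fairly abundant in WT, with a median of 8.29 FPKM in OE and 22.6 FPKM in WT, and 13 of the 176 were under 1 FPKM in OE. The lists were cut by the size of the difference itself, and the minimum mean of 1 FPKM over both groups means that a gene higher in OE cannot average under 1 FPKM in OE, nor a gene lower in OE under 1 FPKM in WT. These levels therefore describe the lists and test nothing.

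Few genes passed from near silence to a high level. In 173 of the 843 higher genes all 3 WT libraries lay under 1 FPKM, and 22 of these reached a mean of 5 FPKM or more in OE, the highest at 31.2 FPKM. The converse was rarer: 10 of the 176 lower genes lay under 1 FPKM in all 3 OE libraries, and their highest WT mean was 5.70 FPKM. Over the whole table, 196 genes were listed above 0 in all 3 OE libraries and at 0 in all 3 WT libraries, against 35 listed at 0 in all 3 OE libraries and above 0 in all 3 WT libraries. Nearly all of these stood near the floor. Of the 196, 2 reached FPKM 1 in all 3 OE libraries, and of the 35, 0 did so in all 3 WT libraries. The OE libraries were the deeper ones on average, and the part of depth in the counts of 196 and 35 was not tested.

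The 13 genes at 8-fold or more were of moderate abundance. Their means ran from 9.96 to 396 FPKM in OE, with a median of 38.0, and from 0.166 to 42.2 FPKM in WT, with a median of 1.84. In the libraries with PEG the same 13 had a median of 295 FPKM in OE and 120 FPKM in WT. Both genotypes thus carried more of these transcripts on PEG medium than either did without it, by the medians of the list.

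The 2-fold genes made up a small part of the measured RNA. The 843 higher genes took 3.70%, 3.77% and 3.67% of the FPKM sum in OE libraries 1, 2 and 3, against 1.21%, 1.21% and 1.21% in WT libraries 1, 2 and 3. The 176 lower genes took 0.941%, 0.947% and 0.980% in the OE libraries, against 2.39%, 2.37% and 2.43% in the WT libraries. The genes were chosen for their difference in these same libraries, so the gap between the groups was fixed by the choice, and the shares only give its size. The same holds for the lists of all called genes. All genes called higher, of any size, took 34.0% to 34.4% of the sum in OE and 24.1% in each WT library, and all genes called lower took 33.3% to 34.0% in OE and 43.9% to 44.0% in WT.

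Decreases in OE took a larger part of the calls among abundant genes. Of the tested genes, 24.7% were called higher and 11.2% lower at 1 to 2 FPKM, 34.5% higher and 34.9% lower at 50 to 100 FPKM, and 29.7% higher and 43.7% lower at 100 to 500 FPKM. Both shares were thus larger at 50 to 100 FPKM than at 1 to 2 FPKM, the lower share by more. Among genes with a mean of 1 to under 5 FPKM, 1786 were called higher in OE and 1016 lower, so that 63.7% of the calls were increases. At 5 to under 100 FPKM, 54.3% were increases, with 4338 higher and 3653 lower. At 100 FPKM or more, 344 were called higher and 534 lower, or 39.2% increases. The most abundant stratum, 102 genes at 500 FPKM or more, included 21 called higher and 58 called lower in OE, and its median log2 fold change was -0.17.

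The order of these bands depended on one scaling. Fitting the reads recovered from FPKM with limma voom gave 63.4% increases in the lowest band and 39.3% in the highest, and median-of-ratios scaling gave 57.9% and 33.0%. Quantile normalization, which forces the same distribution of values on every library, gave 43.1% and 45.3%.

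**Figure D2:**
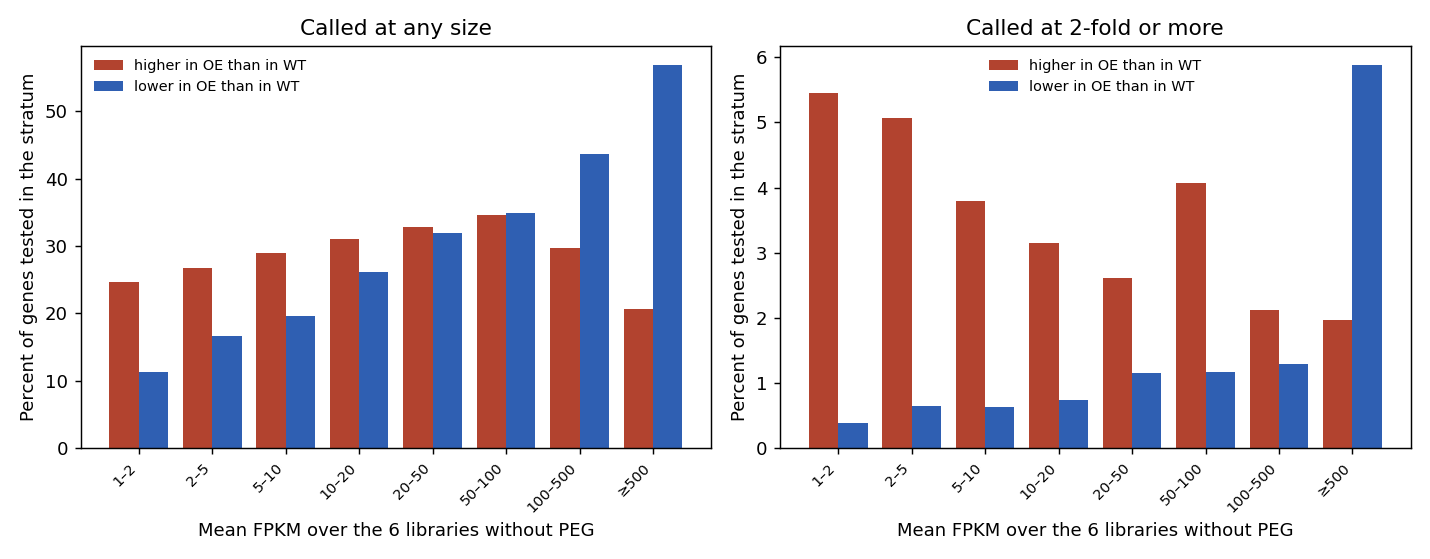
Bars give the percent of tested genes called higher (red) or lower (blue) in OE in 8 strata of mean FPKM, at any size on the left and at 2-fold or more on the right. At any size the lower share climbs from 11.2% at 1 to 2 FPKM to 56.9% at 500 FPKM or more, and it lies above the higher share in the 3 strata at 50 FPKM and over.

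The top of the transcriptome was largely shared. Of the 100 genes with the highest mean FPKM in OE and the 100 highest in WT, 76 stood in both lists. Within the 76, 15 were called higher and 43 lower in OE, against 29.4% higher and 23.6% lower over all tested genes, and at 2-fold 0 were higher and 2 lower. The 100 genes took 12.86% to 13.33% of the FPKM sum in the OE libraries and 14.02% to 14.29% in the WT libraries.

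Large differences were concentrated in short genes. Recovered lengths split the tested genes into quartiles at 1229, 1844 and 2837 bp. In the shortest quartile 405 of 5502 genes (7.36%) were 2-fold higher in OE, and 78 (1.42%) were 2-fold lower. In the longest, 59 of 5508 (1.07%) were 2-fold higher and 18 (0.327%) 2-fold lower. The middle quartiles lay between, with 246 (4.47%) and 133 (2.42%) higher and 51 (0.927%) and 29 (0.527%) lower.

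Calls of any size varied less with length: 31.2% of the shortest and 27.3% of the longest quartile were called higher in OE, and 26.0% and 19.8% were called lower. The median log2 fold change was 0.02 in the shortest quartile and 0.04 in the longest, so length went with the size of the difference and not with a shift of the whole quartile. Short genes were also the more abundant, with a median of 12.7 FPKM against 7.81 FPKM in the longest quartile. Within bands of level the contrast stayed: at 1 to under 5 FPKM 10.3% of the shortest and 1.304% of the longest quartile were 2-fold higher, at 5 to under 20 FPKM 8.03% and 0.963%, and at 20 FPKM or more 4.62% and 0.931%. With voom on recovered reads, 9.45% of the shortest and 2.31% of the longest quartile were 2-fold higher. At equal FPKM a short gene rests on fewer reads than a long one, and the part of read number in this contrast was not tested. Genes are not replicates, and these shares are given as a description.

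**Figure D3:**
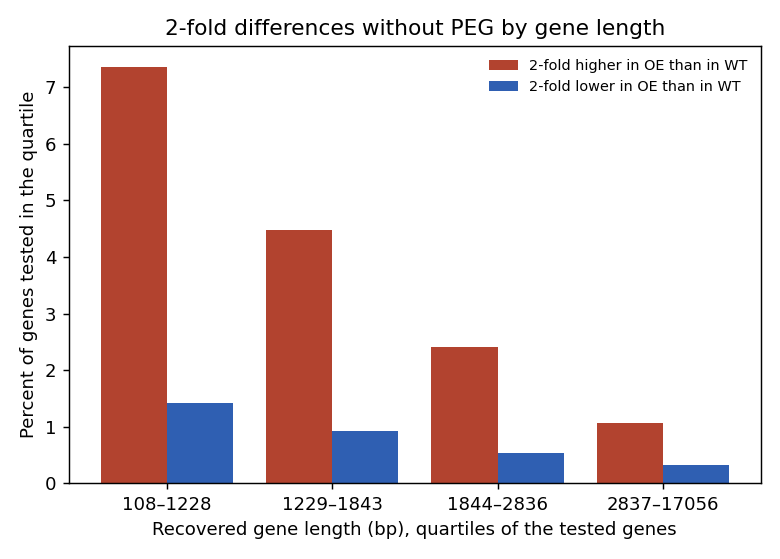
Bars give the percent of tested genes that were called at least 2-fold higher (red) or lower (blue) in OE without PEG, by quartile of recovered gene length. The higher share falls in steps between 7.36% in the shortest and 1.07% in the longest quartile, and the lower share between 1.42% and 0.327%.

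Genes with 2-fold differences stood beside another such gene in identifier order more often than tested genes in general, though most did not. In this identifier scheme the 3 digits after "Potri." give the chromosome and the rest a running number. Of the 843 higher genes, 131 (15.5%) had a listed neighbour in that order that was also 2-fold higher, while 4.96% of all tested genes had such a neighbour. The same held for the lower genes, with 22 of 176 (12.5%) beside another lower gene, against 1.03% of all tested genes. Higher genes formed 57 runs of 2 or more, of which 13 had 3 or more and together held 43 genes. Lower genes formed 9 runs, 2 of them of 3 or more, the longest with 4 genes.

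The longest run held 6 higher genes with identifiers of chromosome 19, with recovered lengths of 270 to 883 bp. Their means ran from 6.22 to 222 FPKM in OE and from 0.902 to 105 FPKM in WT, and their log2 fold changes from 1.07 to 1.99. In the PEG libraries the run stood at 1.09 to 78.4 FPKM in OE and 0.604 to 102 FPKM in WT. The log2 fold changes of OE over WT were then -1.02 to 0.39, with a median of -0.71, against a median of 1.43 without PEG. Neighbouring identifiers can belong to near-identical copies, whose reads the authors' counting could have split or dropped, so members of a run are not independent of each other. By chromosome, 2.70% (13) to 6.81% (19) of tested genes were 2-fold higher and 0.266% (11) to 1.41% (13) were 2-fold lower.

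The genes with the largest differences in FPKM were named, 2 in each direction, among those called 2-fold whose libraries did not overlap. Over all tested genes the highest group mean was 4998 FPKM in OE and 2952 FPKM in WT. A larger difference in FPKM than those named therefore lay outside this choice. Potri.001G102400 stood at 872, 969 and 925 FPKM in OE, against 213, 206 and 212 FPKM in WT. Every OE library was more than 4 times any WT library. Its log2 fold change was 2.13 (SE 0.0435, limma adjusted p = 7.67e-10), and by mean FPKM it ranked 25th in OE and 501st in WT among the tested genes. Under PEG it stood at 2941 ± 17.5 FPKM in OE and 1396 ± 55.3 FPKM in WT (mean ± SD of 3 libraries, as for the other genes), where it was the 2nd and 17th most abundant tested gene.

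Potri.005G089900, a short gene of 371 bp, stood at 746, 764 and 693 FPKM in OE, against 314, 294 and 306 FPKM in WT. The groups were far apart, with a log2 fold change of 1.26 (SE 0.0451, limma adjusted p = 1.13e-08). With PEG it was called lower in OE, at 228 ± 17.6 FPKM in OE and 261 ± 15.1 FPKM in WT, although the highest OE library (246.4) passed the lowest WT library (245.7), with a log2 fold change of -0.19 (SE 0.0569, limma adjusted p = 0.0114). Each OE library without PEG lay above every library of the other 3 groups.

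Among these 2-fold genes Potri.014G151101 had the largest drop in FPKM, at 344, 391 and 362 FPKM in OE, against 1090, 1110 and 1189 FPKM in WT. Its log2 fold change was -1.63 (SE 0.0524, limma adjusted p = 6.42e-09), and it ranked 180th in OE and 18th in WT. Under PEG the gap was wider, at 251 ± 6.94 FPKM in OE and 1540.5 ± 122 FPKM in WT.

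Potri.006G065500 was next, at 523, 598 and 523 FPKM in OE, against 1237, 1263 and 1261 FPKM in WT, the 12th highest level in WT. The log2 fold change was -1.20 (SE 0.0525, limma adjusted p = 4.15e-08). Under PEG it was at 244 ± 10.1 FPKM in OE and 694 ± 7.63 FPKM in WT. It was thus lower in OE on both media, and every PEG library lay below every library without PEG of its own genotype.

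**Figure D4:**
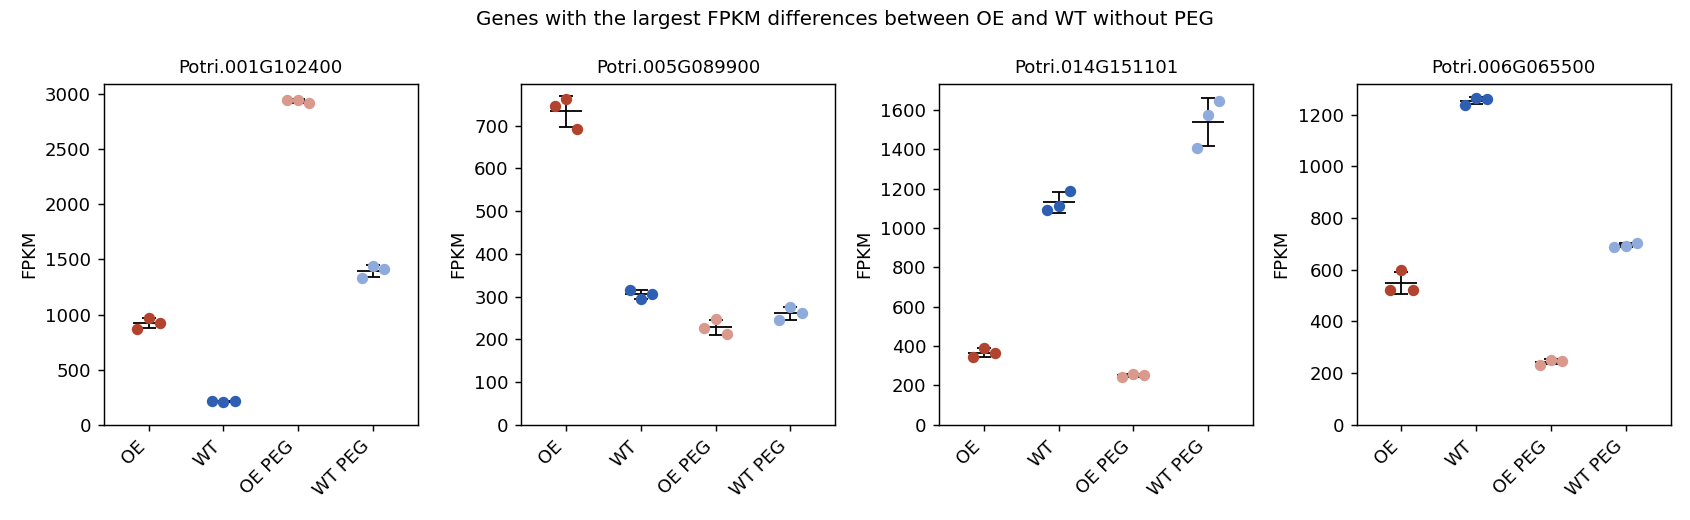
FPKM in each library of the 4 named genes, by group, with the group mean (bar) and SD (whiskers, n = 3). The OE points lie above the WT points for Potri.001G102400 and Potri.005G089900 and below them for Potri.014G151101 and Potri.006G065500 without PEG, and the order of Potri.005G089900 is not kept under PEG.

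The genotype difference was also measured in the 6 PEG libraries, which the first comparison had not used. Across the 22018 genes, limma called 7762 (35.3%) higher in OE PEG than in WT PEG and 7098 (32.2%) lower. These counts are on FPKM as deposited, whose sums were 661656 to 665551 in the OE PEG libraries and 610202 to 611296 in the WT PEG libraries. Of the 843 genes 2-fold higher without PEG, 620 (73.5%) were called higher under PEG as well, 136 (16.1%) were called lower and 87 (10.3%) were not called. Of the 176 genes 2-fold lower without PEG, 146 (83.0%) were called lower under PEG, 11 (6.25%) higher and 19 (10.8%) were not called. For both lists the share called in the same direction was larger than among all tested genes. After rescaling to the same FPKM sum, 594 of 855 genes 2-fold higher without PEG were called higher under PEG. Of 173 genes 2-fold lower, 146 were called lower.

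By the median the difference was smaller under PEG, in lists that had been chosen for a large value without it. The median log2 fold change of the 843 genes was 1.36 without PEG and 0.86 with it, and that of the 176 genes was -1.21 and -0.86. Genes called at less than 2-fold are given for comparison: of 5625 higher genes, 2815 (50.0%) were called higher and 1372 (24.4%) lower under PEG, and of 5027 lower genes, 2579 (51.3%) were called lower and 1007 (20.0%) higher. Of the 10347 genes not called without PEG, 32.0% were called higher and 27.7% lower under PEG.

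By level, the 843 higher genes were more abundant on PEG in both genotypes, with medians of 25.0 FPKM in OE PEG and 11.8 FPKM in WT PEG. The 176 lower genes had medians of 7.97 FPKM in OE PEG and 17.7 FPKM in WT PEG, close to their 8.29 FPKM in OE and 22.6 FPKM in WT without it. The 136 genes that were 2-fold higher without PEG and lower under PEG had medians of 8.31 FPKM in OE and 2.89 FPKM in WT without PEG, and 13.6 FPKM in OE and 22.8 FPKM in WT with it. Levels of these 136 were thus higher on PEG in both genotypes by the median. The larger rise in WT was fixed by the choice of genes higher in OE without PEG and lower in OE with it.

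**Figure D5:**
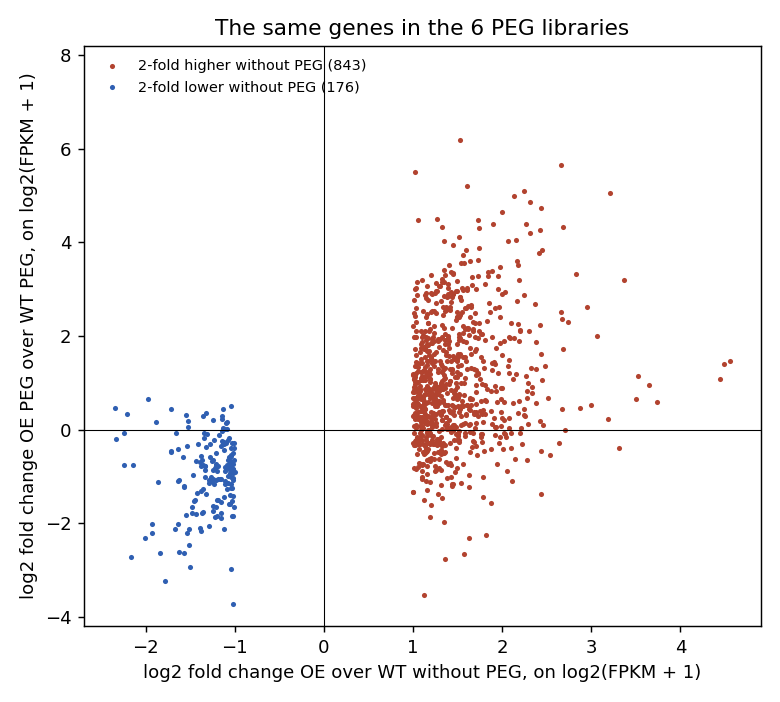
Each point is a gene called at least 2-fold higher (red, 843) or lower (blue, 176) in OE without PEG, with its log2 fold change of OE over WT without PEG on the x axis and under PEG on the y axis, both on log2(FPKM + 1). Most red points lie above 0 on the y axis and most blue points below it, and the axes share no library.

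For the named genes the difference between genotypes was also tested against the medium, by the interaction in a limma fit of all 12 libraries, which called 56.2% of the tested genes. Potri.001G102400 and Potri.005G089900 had smaller values of OE over WT under PEG than without it, by -1.05 (SE 0.0549, limma adjusted p = 1.14e-09) and -1.46 (SE 0.0791, limma adjusted p = 1.68e-09) on the log2 scale. Potri.014G151101 and Potri.006G065500 were lower still in OE relative to WT under PEG, by -0.99 (SE 0.0803, limma adjusted p = 1.22e-07) and -0.31 (SE 0.0654, limma adjusted p = 0.0010) on the same scale. In mean FPKM, the gap between OE and WT was instead larger under PEG for Potri.001G102400 and smaller for Potri.006G065500. The genes were picked on the libraries without PEG, which also enter this test.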

How the data were processed

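The deposited table holds FPKM to 4 decimals for 34699 genes in 12 libraries, computed by the authors from their reads. The submitters' processing notes list the tools HTSeq 0.6.0, HISAT2 2.1.0 and Bowtie2 2.2.3, with no role or order. Build, annotation, strand setting and the treatment of reads matching several copies: not given in the sources used here. FPKM is a whole read number times a constant of the gene over a constant of the library, so reads, depth and length were recovered from its steps. All 16698 genes with a summed FPKM over 50 received a whole length, and 100.00% of their values were returned within the larger of 0.0001 FPKM and 1e-05 of the value. A length was accepted only within a tighter tolerance, so this return was fixed by the method and does not test it. It is not stated if such a read is 1 mate or a pair.

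limma 3.58.1 in R 4.3.3 was run across all genes on log2(FPKM + 1) with a mean-variance trend, on the 6 libraries of a medium and 2 group means, two-sided, with Benjamini-Hochberg adjustment over the 22018 genes. A pseudocount of 1 understates changes of weak genes. The script was tested on simulated data. Genes were named by the largest difference in mean FPKM, 2 each way, among those called 2-fold without overlap. No table paired identifiers with names, so the planned gene lists and markers were not used. The comparison, rule and lists were chosen with earlier results of these data known. Alternatives covered the pseudocount, filter, scaling, variance model, libraries in the fit, threshold, recovered reads, a replicate block and each library left out.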

Additional observations from a re-analysis of the deposited data

Results flagged for a closer look

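The genotype difference of all 4 named genes depended on the medium by the test of the interaction on log2(FPKM + 1). That test called 56.2% of all tested genes, so a call does not set these genes apart. OE over WT with PEG, minus the same without PEG, was -1.05 for Potri.001G102400, -1.46 for Potri.005G089900, -0.99 for Potri.014G151101 and -0.31 for Potri.006G065500. Each kept its sign and its call under every alternative run, and the test shares the libraries without PEG on which the genes were picked. For Potri.005G089900 the log2 fold change of OE over WT was -0.19 with PEG and 1.26 without it.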

How the results depend on the processing

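All 4 named genes kept direction and call under every alternative. They had been picked in the same libraries for large differences without overlap, so this outcome was largely fixed by the choice. Genes called 2-fold lower without PEG, 176, numbered 319 with a pseudocount of 0.1 and 345 with limma voom on recovered reads, both of which shrink low values less. Those also called lower under PEG, 146, numbered 236 and 247 with the same settings. A minimum mean FPKM of 5, which tests fewer genes, gave 486 genes 2-fold higher, against 843, and 372 of them also called higher under PEG, against 620. Quantile normalization turned the balance of genes at 1 to under 5 FPKM, with 43.1% of calls higher in OE; the cause was not tested. The other alternatives, including those added after the data were seen (all of those for the PEG libraries, the bands and the interactions), left these counts within 1.5 times. Leaving out 1 library gave 813 to 862 genes 2-fold higher and 169 to 190 lower. A replicate block gave 844 higher and 176 lower; the numbers mark no stated pairing, and deviations of same-numbered libraries correlated at -0.065 to 0. Counts rest on 3 libraries a group, and genes near 1 FPKM rest on few reads where they are short.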
